A study of Mus musculus with 10 samples.

Results

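Valve lymphatic endothelial cells (LECs) of the mouse ear skin were described here as the LECs rich in *Cldn11*, which encodes a claudin of tight junctions. They were picked well by well from Smart-Seq2 counts of sorted dermal endothelial cells. A well was kept with at least 50000 reads other than spike-ins, at least 200 genes and at most 10% mitochondrial reads. It was taken as an LEC when *Prox1*, *Flt4* and *Mmrn1* together reached 300 CPM (reads of a gene scaled to a common total per well) and exceeded the sum of *Flt1*, *Emcn* and *Podxl*, genes of blood endothelial cells (BECs). An LEC counted as a valve LEC with at least 300 CPM of *Cldn11* and under 500 CPM in sum of the cycling genes *Mki67*, *Top2a*, *Ccnb1*, *Ccnb2*, *Cdk1*, *Cdc20* and *Prc1*. This gave 220 valve LECs of 1641 LECs, 3248 kept wells and 3456 wells in all. The remaining non-cycling LECs, 1257 cells under the *Cldn11* limit, are called other LECs below.

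Ears of 7 mice aged 5 wk gave these cells, 5 of them mutant and 2 control. Mutant mice carried Pik3caH1047R, an activating form of the PI3-kinase catalytic subunit p110α, as a Cre-inducible transgene at the *Rosa26* locus together with Cdh5-CreERT2, which drives Cre in LECs and BECs alike, and received 4-OHT on the ears at 3 wk. Control 1 was an untreated C57BL/6J mouse, and control 2 was a Cre-negative littermate given 4-OHT, so the controls also differ in treatment. Control 3, for which no count table was used here, was not analysed, and each genotype result rests on 2 controls. Cells stained for Podoplanin and CD31 filled 9 plates of 384 wells, mutants 3 and 5 taking 2 of these each and the others 1, after immune cells, erythrocytes and dead cells were gated out. The labels call the sort LECs, but by the paper's methods both LECs and BECs were sorted, and 1490 kept wells met the rule for BECs. Of the 3248 kept wells, 0 held counts identical to those of another, and no doublet caller was run. Mutants 1–4 lie on plates 323–332, and mutant 5 and both controls on plates 891–901, so genotype and plate range cannot be told apart for 4 of the 5 mutants.

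Lymphatic valves are paired leaflets inside collecting vessels and pre-collectors that open with forward flow of lymph and close against backflow. Their endothelium forms from cells with high PROX1 and FOXC2, under the control of GATA2 and NFATC1 and of the shear stress of oscillating flow, and the leaflet core is laid down as a matrix of fibronectin, laminin α5 and collagen IV that integrin α9 binds. Gap junctions of connexins couple the cells, and angiopoietin–TIE, BMP, Notch, ephrin and semaphorin signals act on leaflet growth and on the muscle cells around the valve. Capillary LECs, which take up the lymph, are known for high LYVE1 instead.

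Because the valve genes below rise together, the DNA just upstream of several of them is shown first, taken from RefSeq on GRCm38.p6 and reaching from 250 bases before to 50 bases after the annotated start. Of 13 genes looked up, 9 had an entry. Capitals mark the GC box GGGCGG and the CCAAT box CCAAT on either strand. Neighbouring matches may share a base. The genes are *Cldn11* itself, which defined the cells (chr3:31149670-31149969, plus strand), *Gdf10*, a BMP family ligand (chr14:33923337-33923636, plus strand), *Slc41a1*, a magnesium transporter (chr1:131827762-131828061, plus strand), *Neo1*, a receptor for netrins and RGM proteins and a BMP co-receptor (chr9:59036392-59036691, minus strand), and *Fibin*, a secreted protein (chr2:110362944-110363243, minus strand).
Cldn11: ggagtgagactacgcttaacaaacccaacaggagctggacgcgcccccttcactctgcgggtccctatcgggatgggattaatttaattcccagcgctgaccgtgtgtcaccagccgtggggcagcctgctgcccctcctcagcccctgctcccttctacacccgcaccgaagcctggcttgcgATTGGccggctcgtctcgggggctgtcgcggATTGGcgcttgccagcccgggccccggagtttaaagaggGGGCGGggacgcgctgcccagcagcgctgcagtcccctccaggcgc
Gdf10: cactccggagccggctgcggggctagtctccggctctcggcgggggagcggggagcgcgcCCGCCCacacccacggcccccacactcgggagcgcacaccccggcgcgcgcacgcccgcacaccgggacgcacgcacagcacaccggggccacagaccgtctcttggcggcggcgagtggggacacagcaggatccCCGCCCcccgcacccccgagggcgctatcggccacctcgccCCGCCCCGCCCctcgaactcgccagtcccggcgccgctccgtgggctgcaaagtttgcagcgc
Slc41a1: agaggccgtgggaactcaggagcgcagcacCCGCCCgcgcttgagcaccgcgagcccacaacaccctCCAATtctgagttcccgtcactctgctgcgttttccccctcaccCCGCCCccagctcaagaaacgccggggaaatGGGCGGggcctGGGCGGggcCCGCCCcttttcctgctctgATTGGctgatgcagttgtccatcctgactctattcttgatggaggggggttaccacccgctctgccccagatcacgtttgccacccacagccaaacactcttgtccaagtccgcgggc
Neo1: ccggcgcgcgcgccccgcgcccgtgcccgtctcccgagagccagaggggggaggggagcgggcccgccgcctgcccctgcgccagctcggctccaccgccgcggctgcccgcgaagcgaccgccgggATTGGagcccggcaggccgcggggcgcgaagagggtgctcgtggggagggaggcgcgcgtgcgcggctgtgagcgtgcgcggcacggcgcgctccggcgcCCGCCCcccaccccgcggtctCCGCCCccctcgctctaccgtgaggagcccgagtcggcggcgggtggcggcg
Fibin: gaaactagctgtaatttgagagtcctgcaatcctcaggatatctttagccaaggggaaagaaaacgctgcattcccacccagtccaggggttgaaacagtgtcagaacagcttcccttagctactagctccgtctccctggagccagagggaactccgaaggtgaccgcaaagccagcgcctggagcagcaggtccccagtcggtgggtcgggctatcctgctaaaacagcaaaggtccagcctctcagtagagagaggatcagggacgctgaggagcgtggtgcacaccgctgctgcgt
The *Cldn11* promoter held 1 GC box and 2 CCAAT boxes, that of *Gdf10* held 4 GC boxes, and that of *Slc41a1* held 5 GC boxes and 2 CCAAT boxes. The *Neo1* promoter held 2 GC boxes and 1 CCAAT box, and the *Fibin* promoter neither. Among 32851 mouse promoters of the same length, 35.7% hold a GC box and 37.4% a CCAAT box. The GATA motif AGATAA (11.2% of promoters) and the FOX motif TGTTTAC (3.65%) were not among the letters of these 5 windows. *Angpt2*, *Fxyd2*, *Gjd3* and *Foxc2* had no entry.

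*Cldn11* (chromosome 3, 31149920–31164324, GRCm38) had a long tail rather than a gap at the limit. Of the non-cycling LECs, 1185 lay under 100 CPM, 33 between 100 and 200, 39 between 200 and 300, 57 between 300 and 500, 77 between 500 and 1000, 58 between 1000 and 2000, and 28 above. The cells nearest the limit held 308, 310 and 311 CPM inside it and 297, 296 and 294 CPM outside. Of the cells in the bins from 100 to 200 and from 200 to 300 CPM, 32 and 35 came from mutant mice. So did 880 of the 1185 cells under 100 CPM. The median of the valve LECs was 746 and 1216 CPM in the control mice and 654–1006 CPM in the mutant mice, and the highest cell held 4443 CPM. In the other LECs of each mouse the median was 0–9.64 CPM. *Cldn11* chose these cells, so its levels are a description.

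**Figure D1:**
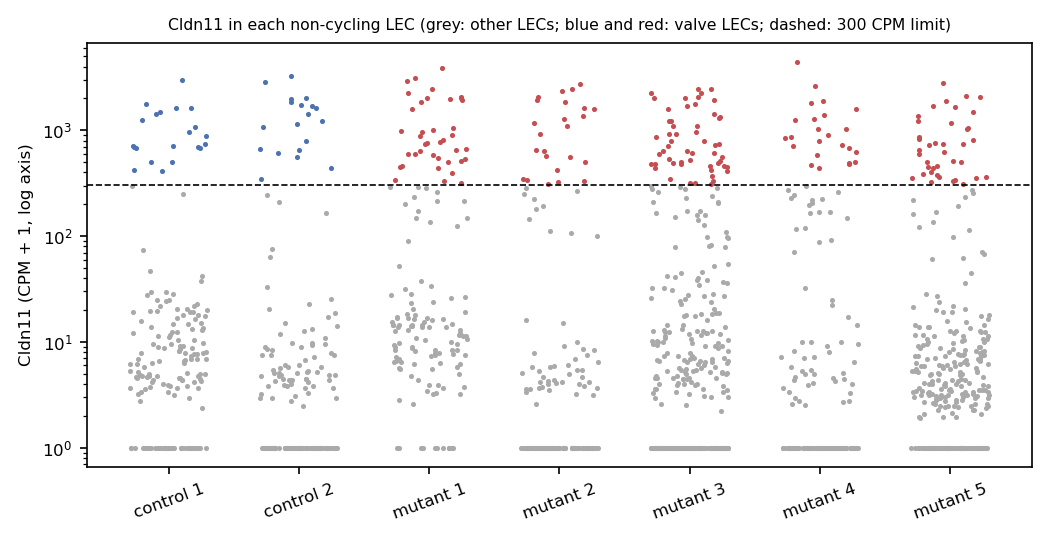
*Cldn11* level of every non-cycling LEC by mouse (CPM + 1, log axis); grey points are other LECs, blue and red points valve LECs of control and mutant mice, and the dashed line is the limit of 300 CPM. The points fill the range around the limit in the mutant mice, where 9–20 cells per mouse lie between 100 and 300 CPM. Their other LECs number 115–280 per mouse. Controls 1 and 2 have 2 and 3 cells in that range, of 158 and 152 other LECs.

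Valve LECs made up 11.5% and 10.9% of all LECs in the control mice and 21.2%, 12.8%, 14.9%, 13.2% and 10.6% in mutants 1–5. Mutant 1 lay highest and mutant 5 below both controls, so the groups overlapped. The means were 14.5% ± 4.01 (SD, n = 5) and 11.2% ± 0.437 (SD, n = 2), a difference of 3.38 points (two-sided exact permutation test, p = 0.381, where 0.0952 is the smallest that 5 against 2 mice can give). Each share rests on 175–367 LECs, and its 95% Wilson interval, for example 15.9–27.7% in mutant 1 and 7.63–16.9% in control 1, covers counting error only. The plates of mutants 3 and 5 gave 14.1% and 15.7%, and 9.95% and 11.4%. Cycling LECs numbered 4 in each control and 17–48 in each mutant mouse. As shares of non-cycling LECs alone, the differences widened to 5.29 points (exact permutation test, p = 0.19). On plates 891–901 the sign turned to −0.54 points, with mutant 5 as the only mutant.

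Summed over cells, the marker *Prox1* was higher in valve than in other LECs of every mouse, although some valve LECs had no *Prox1* read. *Angpt2*, another marker, was lower in the valve LECs of control 1. In plain CPM, the valve LECs held 616–1077 of *Prox1* against 301–465 in the other LECs, and 1.8–12.2 of the BEC gene *Flt1* against 512–855 in BECs. Medians per mouse of *Flt1*, *Emcn* and *Podxl* in sum were 132–722 CPM in valve LECs, 415–643 in other LECs and 1823–2188 in BECs. For *Prox1*, *Flt4* and *Mmrn1* in sum they were 2617–4604 CPM in valve and 3672–6198 CPM in other LECs. These genes make up the LEC rule, so this describes the choice of cells. Of the 6 valve genes *Gdf10*, *Slc41a1*, *Angpt2*, *Neo1*, *Gjd3* and *Fibin*, 119 of the 220 cells (54.1%) held at least 2 at 50 CPM or more, against 240 of 1257 other LECs (19.1%), and 55 against 8 cells held at least 4. In 41 valve LECs (18.6%) none of the 6 reached 50 CPM. These 6 genes come from marker lists made with these data known, so the contrast is a description and not independent support. The share with at least 2 was 94.7% in control 2 and 38.1–69.2% in the other mice, and 16.3–23.6% in their other LECs, so the cell classes did not overlap. After thinning each cell to 50000 reads, *Gdf10* had a read in a median of 41.7% of valve LECs per mouse, 16.3% of other LECs and 3.94% of BECs, which serve as background here. Without thinning the medians were 66.7%, 34.8% and 14.1%.

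To ask what else sets these cells apart, reads were summed per mouse over the valve LECs (5906709–19648096 reads, 19–54 cells) and over the other LECs, and compared within mice with edgeR, leaving out the 14 genes of the rule. Of 14773 genes tested, 108 were higher (0.731%) and 76 lower (0.514%) in valve LECs at an adjusted p under 0.05. The cells of the other class are mostly of capillary type: 940 of the 1257 held at least 1000 CPM of *Lyve1*. CPM in the sentences that follow are scaled by edgeR within this comparison. Over all genes tested the median log2 fold change was −0.17.

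The valve markers *Gdf10*, *Slc41a1* and *Angpt2*, and *Neo1* and *Fibin* of the study's list, were higher. *Gdf10* (chromosome 14, 33923587–33937983) ran from 183 to 1214 CPM in the valve LECs of the 7 mice, with a median of 519, and from 6.24 to 62.4 CPM, median 35.4, in their other LECs. The lowest valve sum stood above every other sum. Its log2 fold change was 3.91 ± 0.29 (SE, n = 7 mice, edgeR adjusted p = 0.00119). *Slc41a1* (chromosome 1, 131827493–131848865) ran from 590 to 3001 CPM (median 1381) against 88.9–259 (median 192), a log2 fold change of 2.85 ± 0.38 (edgeR adjusted p = 0.00805). Control 2 was highest. *Neo1* (chromosome 9, 58874687–59036441) held 164–289 CPM (median 243) against 15.4–56.3 (median 26.1), higher by 3.10 ± 0.30 on the log2 scale (edgeR adjusted p = 0.00153). *Fibin* (chromosome 2, 110360917–110363183) held 50.2–374 CPM (median 183) against 0.251–5.69 (median 4.25), higher by 5.97 ± 0.54 (edgeR adjusted p = 0.00151). Only 64 of the 220 valve LECs had a *Fibin* read. *Angpt2*, a ligand of the TIE receptors, held 163–627 CPM against 83.1–218 CPM, so the classes overlapped, and control 1 was lower in valve than in other LECs. Its log2 fold change of 1.49 ± 0.31 was just inside the threshold (edgeR adjusted p = 0.0499) and its call was lost when control 2 or any mutant mouse was left out (adjusted p up to 0.14).

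The study's own list of 17 valve genes had been chosen on these samples, so its direction is not independent evidence. Of its 16 members tested, 13 rose and none fell, with a median log2 fold change of 2.56. *Sbspon*, which encodes a somatomedin B and thrombospondin domain protein, held 62.2–446 CPM against 1.59–10.9, and *Fxyd2*, the gamma subunit of the sodium pump, 34.3–336 CPM against 2.61–14.2. Neither overlapped. *Slc29a4* (a monoamine transporter, log2 2.80 ± 0.23), *Net1* (a guanine nucleotide exchange factor, 2.18 ± 0.29), *Ccdc141* (1.71 ± 0.15) and *Nav1* (a microtubule-binding protein, 1.69 ± 0.19) rose in all 7 mice. The taurine transporter *Slc6a6* missed the threshold (log2 1.58 ± 0.35, edgeR adjusted p = 0.0641).

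Among 15 tested transcription factors of valves and lymphatics, 2 rose and none fell. *Foxc2*, which valve formation requires, held 197–447 CPM (median 381) in valve LECs and 84.5–201 CPM (median 122) in other LECs, a log2 fold change of 1.44 ± 0.16 (edgeR adjusted p = 0.00326). Only the lowest valve sum, control 2, reached the range of the other LECs. *Gata2* held 284–545 CPM (median 411) against 112–236 (median 177), higher by 1.35 ± 0.15 (edgeR adjusted p = 0.00329) with no overlap. *Nfatc1* was above its level in the other LECs of each of the 7 mice but did not pass (log2 0.60 ± 0.14, edgeR adjusted p = 0.0705), nor did the shear-responsive *Klf2* (0.89 ± 0.19, 0.0531) and *Foxo1* (0.68 ± 0.16, 0.081).

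**Figure D2:**
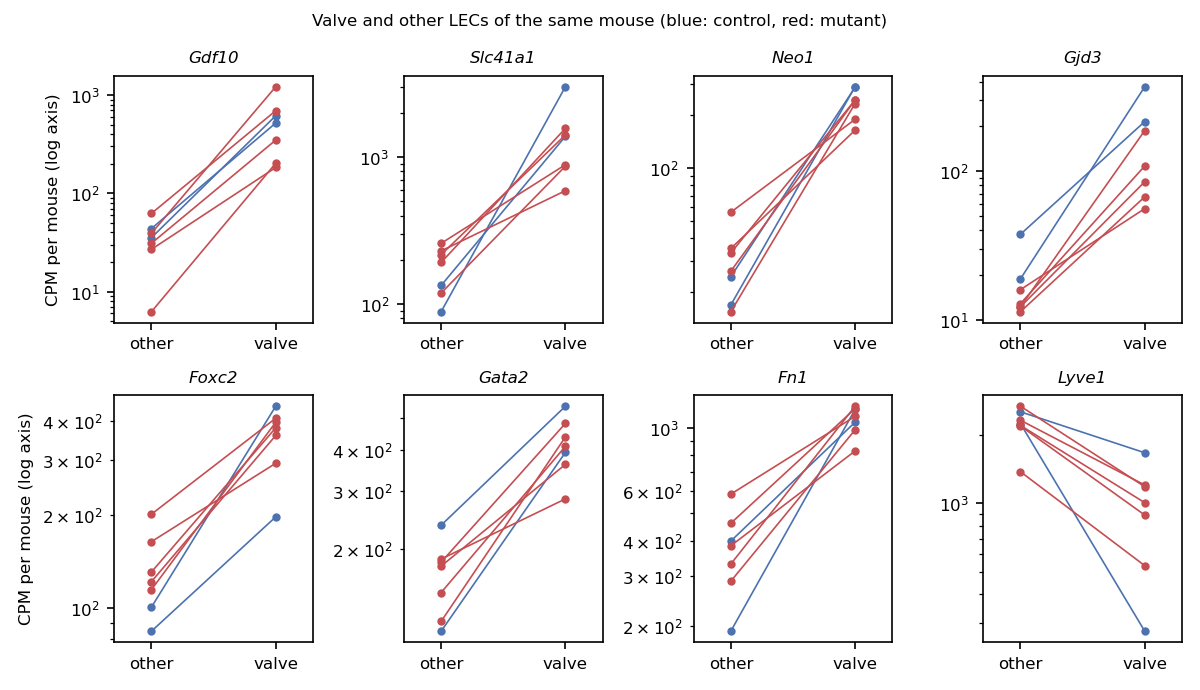
CPM (log axes) of 8 genes in the other LECs and the valve LECs of each mouse, joined by a line, with control mice in blue and mutant mice in red. The 7 lines rise for *Gdf10*, *Slc41a1*, *Neo1*, *Gjd3*, *Foxc2*, *Gata2* and *Fn1* and fall for *Lyve1*, most steeply in control 2.

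Of the matrix components of the leaflet, fibronectin and laminin α5 rose and collagen IV did not. *Fn1*, fibronectin, held 829–1192 CPM (median 1098) in valve LECs and 192–584 CPM (median 384) in other LECs, higher by 1.56 ± 0.18 on the log2 scale (edgeR adjusted p = 0.00329), and *Lama5*, the laminin α5 chain, held 62.4–191 CPM against 19.1–82.2 CPM (edgeR adjusted p = 0.0122). These were the 2 called of 20 tested matrix and integrin genes, of which 10 had a log2 fold change under 0 (median −0.06). *Col4a1*, a chain of collagen IV, was lower in valve LECs of all 7 mice (227–747 against 430–943 CPM, log2 −0.51 ± 0.12) without passing (edgeR adjusted p = 0.082). *Col4a2* gave 158–692 against 373–770 CPM, also lower in 7 of 7 (−0.43 ± 0.14, edgeR adjusted p = 0.214). *Itga9*, the integrin that binds valve fibronectin, stood at 182–604 CPM in valve and 160–348 CPM in other LECs (log2 0.12 ± 0.16, edgeR adjusted p = 0.821). Of 8 tested connexin and pannexin genes, 2 rose. *Gjd3* held 55.8–369 CPM against 11.3–37.5 CPM (log2 3.00 ± 0.31) and *Gja4*, connexin 37, held 571–1591 against 217–637 (1.00 ± 0.12). *Gja1*, connexin 43, gave 157–286 against 182–393 CPM and did not pass (edgeR adjusted p = 0.382).

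In the flow and polarity list 17 of 22 tested genes had a log2 fold change above 0 (median 0.21, against −0.17 over all genes) and 4 passed, all higher. Of these, *Adm*, the lymphangiogenic peptide adrenomedullin, held 198–692 CPM (median 435) against 24.4–122 (median 71.1), a log2 fold change of 2.72 ± 0.25 (edgeR adjusted p = 0.00151). *Sgk1*, a kinase downstream of PI3K, rose by 0.98 ± 0.12, *Pkd1* by 0.62 ± 0.11 and *Kdr* (VEGFR2) by 0.49 ± 0.09. *Pkd1* lost its call with any of 4 mice left out and *Kdr* with any of 6 (adjusted p up to 0.103). *Celsr1*, which orients valve cells, did not pass (1.05 ± 0.26, edgeR adjusted p = 0.102). In the BMP and TGF-beta list *Neo1* and *Gdf10* were the 2 of 17 called, in the Notch list *Dtx1* (1.10 ± 0.11) the 1 of 12, and in the ephrin and semaphorin list *Ephb4* (0.50 ± 0.08) and *Sema3d* (0.61 ± 0.12) the 2 of 14. *Sema3d* was not called with any of the 7 mice left out. In the angiopoietin and VEGF list 8 of 11 were above 0 (median 0.32), and *Angpt2*, *Kdr* and *Tie1* passed. *Tie1*, an orphan receptor of the angiopoietin pathway, held 1142–1747 against 924–1361 CPM (0.44 ± 0.08), and its call too was lost with any of 6 mice left out. *Cldn5* and *Esam* were the 2 of 13 tight junction genes called, of which *Esam* also stands in the collecting vessel list. *Esam*, an adhesion molecule, held 324–420 CPM (median 354) against 84.8–160 (median 122). The other collecting vessel gene called was *Pdlim3* (1.28 ± 0.19), of 14 tested.

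Capillary genes stood lower. Of 16 tested, 14 had a log2 fold change under 0 and 3 were called, all lower, and the median was −1.09. *Lyve1*, the hyaluronan receptor of capillary LECs, held 276–1665 CPM (median 1007) in valve LECs and 1375–2660 CPM (median 2232) in other LECs, lower in every mouse by −1.34 ± 0.23 on the log2 scale (edgeR adjusted p = 0.0255). Leaving out any mutant mouse ended that call (adjusted p up to 0.0742). *Ackr2*, a chemokine scavenger, held 27–423 against 193–939 CPM (−1.46 ± 0.25), and *Igfbp4* 167–474 against 347–990 CPM (−1.10 ± 0.15). *Ptx3* (−1.67 ± 0.49, edgeR adjusted p = 0.159) and *Mrc1* (−1.77 ± 0.44, 0.0967) were lower in all 7 mice without passing.

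Some of the largest changes lay in genes with no known place in valves. *Cd79a*, a signalling chain of the B cell receptor, held 11.3–151 CPM (median 65.2) in valve LECs and 0.0501–5.94 CPM (median 1.27) in other LECs, a log2 fold change of 5.38 ± 0.69 (edgeR adjusted p = 0.00686). It had a read in 49 of 220 valve LECs and 103 of 1257 other LECs. *Cd79b* had no read in any valve LEC, *Ms4a1* held 0.714–2.25 CPM and the leukocyte gene *Ptprc* 0–0.169 CPM there, so other defining genes of B cells were at or near 0. *Tmod4*, a tropomodulin of muscle (log2 3.91 ± 0.64), *Srgn*, a granule proteoglycan (3.68 ± 0.52), the tetraspanin *Tspan32* (3.62 ± 0.69) and the homeobox gene *Irx3* (4.92 ± 0.72) also rose in all 7 mice. *Irx3* reads came from 23 valve LECs, with 63.7% of them in 5 wells. *Odc1*, the first enzyme of polyamine synthesis, rose by 2.58 ± 0.36 and was the 1 of 29 mTORC1 metabolic genes called.

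The lower calls were mostly of weakly expressed genes: 48 of the 76 had a mean log2 CPM under 3, against 0 of the 108 higher calls, and 17 had no read in 4 or more valve sums. Named among the stronger ones were the lysyl oxidase *Loxl4*, the matrix proteins *Matn2* and *Tnc*, *Prnp*, the volume channel subunit *Lrrc8c*, *Slco2b1* (21.3–245 against 193–686 CPM) and *Sorbs2*. *Tnc* was not called with any mouse left out. *Kcnj8*, a potassium channel of mural cells (0.21–3.83 against 2.49–37.2 CPM), and *Col1a2*, a fibroblast collagen (0.32–35.6 against 2.28–115 CPM), were also lower. The 7 fibroblast markers summed to 3.72–145 plain CPM in valve LECs and 21–511 in other LECs, and the 8 mural markers to 3.31–71.2 and 47.4–190. The part of such RNA in these calls was not tested.

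Single mice and cell numbers bear on these counts. With 1 mouse left out, 96 (without mutant 5) to 146 (without control 1) genes were called, with 111 at most when any mutant was missing, and of 50 named or listed genes 29 were called whichever mouse was missing. Beside those given above, *Loxl4*, *Lrrc8c*, *Matn2*, *Col1a2*, *Cd34*, *B2m* and *Tspan32* each lost their call with any of 6 mice (edgeR adjusted p up to 0.119), *Prnp* and *Cldn5* with any of 5 and *Ackr2*, *Slco2b1*, *Sorbs2* and *Tmod4* with any of 3. When the other LECs of each mouse were drawn down to the number of its valve LECs, 22 genes were past the threshold, 19 higher and 3 lower, of which 21 were among the 184. Of 49 named or listed genes tested there, 37 lost their call and 12 kept it. *Gdf10*, *Fn1*, *Net1*, *Fibin*, *Sbspon*, *Gata2* and *Slc41a1* were among the latter (edgeR adjusted p = 0.00612 to 0.0464). *Foxc2* (0.0711), *Neo1* (0.108), *Gjd3* (0.244), *Adm* (0.157), *Lyve1* (0.14) and *Angpt2* (0.506) were among those lost (edgeR adjusted p). None of the 50 genes was called under every alternative, which was fixed in advance because the 2 control mice alone gave 0 calls. Of the 19 alternatives, *Gdf10*, *Fn1*, *Net1*, *Fibin*, *Sbspon*, *Gata2* and *Slc41a1* were called under 18. *Col1a2*, *Prnp*, *Sema3d* and *Tnc* were called under 5.

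Collecting vessel LECs are the nearest neighbours of valve cells, so the valve LECs were also set against 105 collecting-type LECs, taken as non-cycling LECs under the *Cldn11* limit with under 1000 CPM of *Lyve1* and at least 100 CPM of the collecting vessel factor *Foxp2*. They numbered 7–25 per mouse. Here 12 of 11254 genes were higher (0.107%) and 17 lower (0.151%) in valve LECs (edgeR, adjusted p under 0.05). Against these cells *Foxc2* and *Gata2* did not pass: *Foxc2* held 195–420 CPM in valve and 141–530 CPM in collecting-type LECs (log2 0.28 ± 0.22, edgeR adjusted p = 0.833). *Gata2* held 266–511 against 92.2–649 CPM (0.57 ± 0.33, edgeR adjusted p = 0.742). Of 13 tested collecting vessel genes and 14 transcription factors, none was called.

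A small set of valve genes was called both against the other LECs and against the collecting-type LECs, which are part of them. *Neo1* held 158–287 CPM (median 227) in valve and 2.32–25.4 CPM (median 5.28) in collecting-type LECs, higher by 5.01 ± 0.55 on the log2 scale (edgeR adjusted p = 0.00466). *Fibin* held 47–371 CPM against 0–8.86 CPM (6.53 ± 0.73, edgeR adjusted p = 0.00466). *Fxyd2* held 32.1–333 against 0–10.2 CPM (6.71 ± 0.88, edgeR adjusted p = 0.0121). None of these 3 overlapped. *Slc41a1* (567–2976 against 31.3–255 CPM), *Slc6a6* (110–280 against 3.04–63.8 CPM), *Nts*, the peptide neurotensin (78.8–498 against 1.16–51.1 CPM), *Nav1*, *Pygm*, the muscle glycogen phosphorylase, *Gjd3* and the matrix protein *Olfml2a* rose too. *Gjd3*, *Nav1* and *Olfml2a* lost their calls with any of 5 mice left out (edgeR adjusted p up to 0.164), *Nts* with any of 4, *Slc41a1* and *Slc6a6* with any of 3, *Fxyd2* without control 2 or mutant 5, and *Pygm* with any of the 7. Called in both comparisons were *Fibin*, *Fxyd2*, *Gjd3*, *Nav1*, *Neo1*, *Pygm* and *Slc41a1*, all higher, and *Igfbp4*, lower. These 8 are 4.35% of the calls against other LECs and 27.6% of those against collecting-type LECs, and both comparisons use the same valve sums. With equal numbers of cells, *Fibin* kept its call against collecting-type LECs (edgeR adjusted p = 0.012). The calls of *Neo1* (0.19), *Fxyd2* (0.0523), *Slc41a1* (0.122), *Gjd3* (0.114), *Nav1* (0.0894), *Pygm* (0.713) and *Igfbp4* (0.0914) were lost there (edgeR adjusted p). *Gdf10* was higher in all 7 mice (169–1167 against 0.377–173 CPM, log2 3.66 ± 0.80) but did not pass (edgeR adjusted p = 0.12).

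Lower in valve than in collecting-type LECs were 9 named genes that the wider comparison did not call, beside *Igfbp4*. *Fgl2*, a fibrinogen-like secreted protein, held 678–2465 CPM (median 1156) in valve and 2353–3474 CPM (median 2952) in collecting-type LECs (log2 −1.25 ± 0.13, edgeR adjusted p = 0.00466). It was the 1 named gene of 20 called under all 15 alternatives, which here did not include the control mice alone. *Fmo2*, a flavin monooxygenase, held 1.48–132 against 211–859 CPM (−3.99 ± 0.60), and *Lcn2*, an iron-siderophore carrier, 77.5–410 against 732–1354 CPM (−2.02 ± 0.28). Neither overlapped. *Apoe* (−2.12 ± 0.29), the proteoglycan *Bgn* (−1.68 ± 0.22), *Gja1* (147–267 against 326–826 CPM, −1.43 ± 0.21), *Slc3a2*, a subunit of amino acid transporters (−1.30 ± 0.15), the cytokine receptor *Il6st* (−1.28 ± 0.15) and *Nudt4* (−1.26 ± 0.20) fell in all 7 mice. *Gja1*, *Nudt4* and *Igfbp4* lost their calls with any of 5 mice left out (edgeR adjusted p up to 0.114), *Fmo2* and *Lcn2* without mutant 1, mutant 2 or mutant 5, and *Apoe* and *Bgn* without mutant 5. Without single mice, 7 (mutant 5) to 35 (control 1) genes were called, with 10 to 12 without control 2, mutant 1, mutant 2 or mutant 3, and with equal numbers of cells 3. In that last setting 18 of the 20 named genes lost their call.

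**Figure D3:**
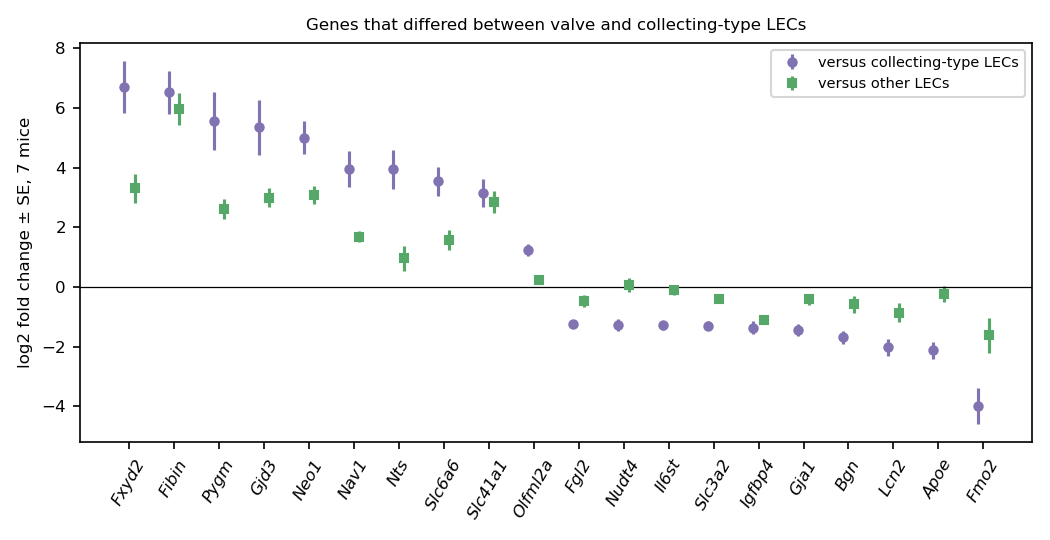
Log2 fold change ± SE (7 mice) of 20 genes that differed between valve and collecting-type LECs, against collecting-type LECs (purple circles) and against other LECs (green squares). *Fibin*, *Slc41a1* and *Igfbp4* sit at like heights in both, whereas *Nudt4*, *Il6st* and *Apoe* lie under −1 in purple and within 0.23 of 0 in green.

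Valve LECs were not alike among themselves, as a split by their own *Cldn11* level describes. The 220 cells were split at 1000 CPM, a limit chosen after the values were seen, into 86 with more and 134 with less. *Gdf10* had a mean of 348–1812 CPM in the former (median of the 7 mice 814) and of 74.4–677 CPM in the latter (median 126), and was higher in the former in every mouse. *Slc41a1* (median 1526 against 1028), *Sbspon* (330 against 33.3) and *Slc29a4* (493 against 121) did the same in 7 of 7 mice. *Foxc2* (554 against 246), *Gata2* (442 against 331), *Fn1* (1338 against 764), *Adm* (909 against 268), *Gjd3* (179 against 58.3) and *Fibin* (412 against 44.7) were higher in 6 of 7. *Angpt2* (557 against 180) and *Gja4* (949 against 654) were higher in 5 of 7 and *Prox1* (1015 against 685), a gene of the rule, in 4 of 7. *Lyve1* ran the other way in all 7 mice, with 92.8–1399 CPM (median 325) in cells rich in *Cldn11* and 662–1756 CPM (median 1411) in the rest, next to a median of 2471 in other LECs. *Mmrn1* (1353 against 2408), *Flt4* (1020 against 1634) and *Ptn* (262 against 459) were lower in 7 of 7 too, *Mmrn1* and *Flt4* being genes of the LEC rule. Across the 220 cells, which share plates and mice, Spearman's coefficient with *Cldn11* was 0.45 for *Gdf10*, 0.35 for *Fn1*, 0.085 for *Neo1* and −0.38 for *Lyve1*. No test was made of this split. *Cldn11* also chose the cells, and the valve markers come from lists made with these data known. Their rise with *Cldn11* is thus a description and not independent support.

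**Figure D4:**
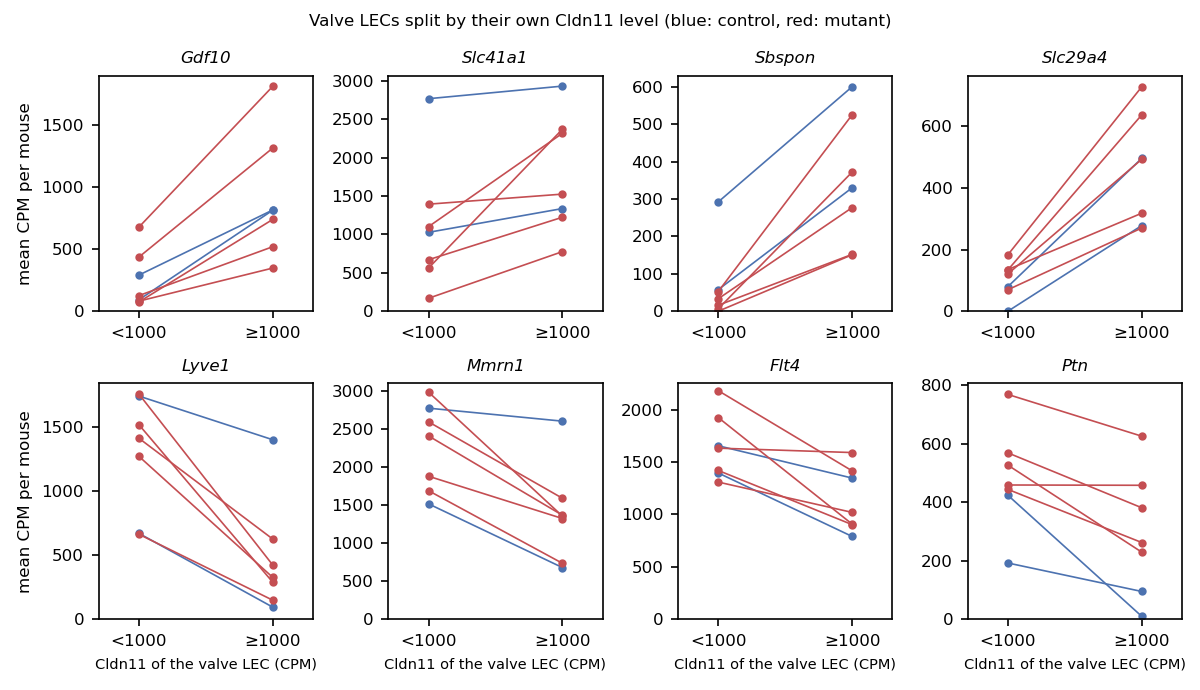
Mean CPM of 8 genes in valve LECs with under 1000 and with at least 1000 CPM of *Cldn11*, 1 line per mouse (blue control, red mutant; n = 7 to 36 cells and 8 to 18 cells per mouse). In all mice the upper genes rise and *Lyve1*, *Mmrn1*, *Flt4* and *Ptn* fall, some of the lines only slightly.

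Single cells differed widely. *Gdf10* ran from 0 to 6736 CPM, with a median of 339 CPM over the valve LECs of control 2 and 0–28 CPM in the other mice, and 23 of the 39 valve LECs of mutant 5 had no *Gdf10* read. *Slc41a1* had medians of 2116 CPM in control 2 and 10.9–897 CPM elsewhere. *Foxc2* had medians of 10.7 and 5.05 CPM in the control mice and 153–331 CPM in the mutant mice. The 11 cycling LECs that held at least 300 CPM of *Cldn11*, of 164 cycling LECs, were no members.

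Whether valve LECs responded to Pik3caH1047R was asked over mice, 5 against 2. No gene passed among 13611 tested (0%, edgeR adjusted p under 0.05, either direction). The smallest adjusted p was 0.137. At an unadjusted p under 0.05 there were 1641 genes, and DESeq2 called 808. The control sums rest on 21 and 19 cells. In the other LECs of the same mice 130 of 18856 genes were higher (0.689%) and 55 lower (0.292%) in mutants, but when these were drawn down to as many cells as the valve LECs, a setting chosen after the data were seen, none passed either (1642 at an unadjusted p under 0.05). The difference between the 2 genotype effects, tested as an interaction, gave 0% of 18739 genes (1432 unadjusted; 714 by DESeq2; smallest adjusted p 0.0998). With plate range as a block the 185 calls of the other LECs fell to 56, and on plates 891–901 alone to 1. Without control 1 the interaction gave 25 genes and the other LECs 2, and without control 2 the interaction gave 3. The other LECs gave 26 to 91 genes when mutant 1, mutant 2, mutant 3 or mutant 4 was left out. The values below are thus descriptions. All 5 mutant mice lay above both controls for 9.71% of genes and below both for 8.04%.

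The glucose transporter *Slc2a1*, a target of PI3K and mTORC1 signalling, had that smallest interaction p. Its valve LECs held 8.16 and 18 CPM in the control mice and 149, 131, 190, 72.7 and 159 CPM in mutants 1–5, without overlap (log2 3.42 ± 0.56, edgeR adjusted p = 0.138). In the other LECs the log2 difference was 0.29 ± 0.27, and the effect in valve LECs exceeded that in other LECs by 3.20 ± 0.42 (edgeR adjusted p = 0.0998). Of 29 mTORC1 metabolic genes tested in valve LECs, 6 lay wholly above the controls and 1 below, beside 9.71% and 8.04% of all genes. Of 17 FOXO-responsive genes none did either way.

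Of 10 genes of VEGF and angiopoietin signalling tested in valve LECs, 6 were above both controls in every mutant mouse (*Nrp2*, *Tek*, *Tie1*, *Kdr*, *Ptprb* and *Vegfb*) and *Vegfd* was below. For this list and the matrix list below, the shares over all genes were 9.71% above and 8.04% below. *Nrp1* overlapped the controls (1.85–5.55 CPM against 13.4 and 2.62). *Nrp2*, the VEGF-C co-receptor, held 165 and 69.4 CPM in controls and 675, 351, 674, 477 and 394 CPM in mutants (log2 2.14 ± 0.43, edgeR adjusted p = 0.155). In the other LECs it rose by 1.34 ± 0.24 (edgeR adjusted p = 0.045), but not past the threshold with plate range as a block (1.10 ± 0.30, edgeR adjusted p = 0.242). *Tek*, the receptor TIE2, held 182 and 144 CPM against 294, 367, 308, 498 and 213. Of the matrix and integrin genes 8 of 20 lay above both controls and *Lamb2*, a laminin chain, below both (433 and 405 against 233–322 CPM). Among those above was the basement membrane collagen *Col4a1*, with 324 and 223 CPM against 652, 729, 631, 639 and 565 (log2 1.23 ± 0.23, edgeR adjusted p = 0.152). *Col4a1* rose in the other LECs by 0.86 ± 0.15 (edgeR adjusted p = 0.0431), a call that the plate range block also ended (0.71 ± 0.18, edgeR adjusted p = 0.216). Both cell classes come from the same mice.

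Valve genes lay below the controls or overlapped them. Of 16 tested genes of the study's valve list, 6 were below both controls in all mutant mice (*Ccdc141*, *Fxyd2*, *Neo1*, *Rasd1*, *Gjd3* and *Net1*) and none above, with a median log2 fold change of −0.95 beside 0.06 over all genes. Over all genes tested, 8.04% were below and 9.71% above. The list was chosen on these samples, so its direction between genotypes is not independent evidence either. *Fxyd2* held 111 and 331 CPM in controls and 33.4, 55, 34.4, 66.1 and 68.6 CPM in mutants (log2 −2.10 ± 0.47, edgeR adjusted p = 0.194). In the other LECs it overlapped. *Gjd3* held 204 and 363 CPM against 106, 65.5, 54.1, 81.3 and 180 (−1.54 ± 0.45, edgeR adjusted p = 0.273). *Nfatc1*, the only 1 of 15 transcription factors without overlap, held 916 and 1249 CPM against 350, 497, 393, 518 and 593 (−1.20 ± 0.24, edgeR adjusted p = 0.155). In the other LECs of the same mice *Gjd3* (38.4 and 19 against 11.9–16.5 CPM), *Nfatc1* (422 and 670 against 331–412 CPM) and *Ccdc141* (109 and 102 against 52.4–76.4 CPM) were also below both controls in every mutant. *Gdf10* (493 and 606 against 178–1186 CPM), *Foxc2* (425 and 194 against 284–399), *Gata2* and *Angpt2* overlapped between genotypes. Valve LECs with at least 1000 CPM of *Cldn11* numbered 8 and 12 in controls, beside 13 and 7 with less. In mutants 1–5 they numbered 14, 12, 18, 10 and 12, beside 25, 12, 36, 14 and 27 with less. The part of this mix in the genotype differences was not tested.

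Immediate-early genes, which cell dissociation is known to induce, were looked at for the same reason as the markers of other cells. Of 20 tested, 7 were below both controls in every mutant mouse and none above, beside 8.04% and 9.71% of all genes tested. *Junb* held 639 and 342 CPM in controls and 77.1, 79.7, 45.2, 26.6 and 91.5 CPM in mutants (log2 −2.94 ± 0.44, edgeR adjusted p = 0.138). The 22 genes of the list summed to 3907 and 5899 plain CPM in control valve LECs and to 1791–3086 in mutant ones. This was not particular to valve LECs. The sums were 3653 and 5174 against 1603–3436 in other LECs, and 5894 and 6176 against 2323–4092 in BECs. The fibroblast markers summed to 89.2 and 145 against 3.72–51.2 in valve LECs, and to 229 and 511 against 21–151 in other LECs. *Rasd1* belongs to both the valve and the immediate-early list. The part of either signal in the genotype differences was not tested.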

How the data were processed

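The deposited tables hold read counts per gene and well for 46517 genes in each table, made by the authors from Smart-Seq2 reads aligned with TopHat2 2.1.1 to GRCm38 plus the chicken *PIK3CA* sequence, with duplicates removed by SAMtools 0.1.18 and genes counted by featureCounts. Per the file headers, the gene length tables give bases of exon and were used only as row information. The strand setting of the counting was not given in the sources used here, so reads of genes that overlap another (6 of 58 checked: *Angpt2*, *Fgl2*, *Foxc2*, *Junb*, *Matn2* and *Prnp*) are uncertain. Gene symbols and positions were those of GENCODE vM21. Control mouse 3 was not analysed here, as no count table of it was among the files used.

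Reads were summed per mouse and cell class and tested with edgeR 4.0.16 in R 4.3.3: TMM scaling, filterByExpr, the quasi-likelihood F test and Benjamini-Hochberg adjustment at 0.05, with the mouse as a block between cell classes. Valve and other LECs of a mouse deviated together (r = 0.12 to 0.31 over 9963 genes). SE was the log2 fold change divided by the square root of F. CPM beside a test are TMM-scaled within it, and others are plain. P-values measure the spread between mice. Valve LECs held a median of 252328–480651 reads per cell in the 7 mice. Reads carry no molecular identifiers. Wilson intervals rest on the number of cells within a mouse, so they cover counting error only. The members, lists and limits were chosen with earlier results of these data known. Named genes were the 10 called genes per direction with the largest log2 fold change that had the same sign in every mouse and averaged 3 or more on the log2 CPM scale, predicted genes left aside, plus list members. Some genes that this rule names are not reported here. The scripts were tested on simulated data. DESeq2 1.42.0, other limits, thinning, equal cell numbers, plate blocks and leaving out mice were the alternatives. Shares were compared by an exact permutation test that listed all 21 splits. Wilson intervals and Spearman's coefficients were computed with scipy 1.17.1.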

Additional observations from a re-analysis of the deposited data

Results flagged for a closer look

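The valve share and gene levels in valve LECs, 63 results in all, were checked for a mutant mouse standing apart from the other 4. Of these, 7 were past Dixon's limit of 0.71, all of them gene levels, and chance alone flags about 1 in 20. *Col1a2* was highest in mutant 5 at 3.95 CPM against 0.311–1.08 in the other mutants. *Fgl2* was highest in mutant 3 at 1511 CPM against 1130–1240. *Kcnj8* was highest in mutant 2 at 1.85 CPM against 0.205–0.653. *Kdr* was lowest in mutant 5 at 734 CPM against 934–1000, and the controls held 591 and 618. *Matn2* was highest in mutant 4 at 42 CPM against 0.616–5.13, with 29.5% of its valve reads in 1 well. *Sema3d* was highest in mutant 3 at 549 CPM against 349–368. *Tnc* was highest in mutant 5 at 38.6 CPM against 0.616–7.84, with 58.1% of its valve reads in 1 well. The causes of these values were not tested.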

How the results depend on the processing

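The count of genes that differed between valve and other LECs, 184, became 355 at a *Cldn11* limit of 500 CPM, 350 with cycling LECs included, 1537 with DESeq2, 22 with equal numbers of cells, 66 in the mutant mice alone and 0 in the 2 control mice alone (edgeR, 1197 at an unadjusted p under 0.05), and 96–146 with a mouse left out. Against capillary-type LECs, a setting chosen after the data were seen, it was 192. The 29 genes against collecting-type LECs became 47 after thinning, 651 with DESeq2, 3 with equal numbers of cells, 86 with no filter and 7–35 with a mouse left out. Without the mouse as a replicate block the counts were 129 and 18. No named gene reversed its direction in these comparisons. For genotype, valve LECs gave 2 genes at a limit of 200 CPM and 808 with DESeq2, and 0 with a mouse left out. The interaction gave 3 after thinning, 1 with no filter, 714 with DESeq2 and 0–25 with a mouse left out. The 185 genes of the other LECs became 1677 with DESeq2, 56 with plate range as a block, 1 on plates 891–901, 0 when drawn to valve numbers and 2–164 with a mouse left out. With the shared replicate number as a replicate block the other LECs gave 5 and the valve LECs 0, but mice that share a number did not deviate together (r = −0.066 to 0.011). The difference in valve share, 3.38 points, reversed to −0.54 on plates 891–901 and was 1.71–4.36 with a mouse left out. It was 5.26 points at a *Cldn11* limit of 200 CPM and 1.28 points at 500 CPM (exact permutation test, p = 0.286 and 0.667). Apart from the settings' own construction, the causes were not tested. The control sums of valve LECs rest on 21 and 19 cells of 2 mice, and cell number, plate range and genotype were not separated.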

Other observations

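The 11 cycling LECs with at least 300 CPM of *Cldn11* were spread over 5 mice, with 2 in control 1, 2 in mutant 1, 3 in mutant 2, 3 in mutant 3 and 1 in mutant 5. In the collecting-type LECs 19 of 105 cells (18.1%) held at least 2 of the 6 valve genes at 50 CPM and 0 held at least 4, next to 119 and 55 of the 220 valve LECs.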
